A study of Homo sapiens with 16 samples.

Results

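The major histocompatibility region of the short arm of human chromosome 6 was examined in Hi-C libraries of K562, an established human leukaemia cell line of erythroid type. In Hi-C, fixed chromatin is digested, neighbouring DNA ends are ligated, and each ligated pair that is sequenced counts as a contact. Members were the 20 kb bins between 29.6 and 33.5 Mb of build hg19, with flanks reaching to 28.5 and 34.5 Mb, that were listed in all 8 files of the second sequencing run. This gave 285 of the 300 bins of that stretch, among 137198 bins of chromosomes 1 to 22 and X listed in all 8 files. The region itself held 183 of these bins. They were divided by borders placed from the known order of genes into a class I part from 29.6 to 31.48 Mb with 90 bins, a class III part from 31.48 to 32.2 Mb with 30 bins, and a class II part from 32.2 to 33.5 Mb with 63 bins. The telomeric flank held 55 bins and the centromeric flank 47 bins. All groups were unmodified K562 cells, fixed with 2% formaldehyde and digested in the nuclei with the restriction enzyme HindIII for 0.25, 1, 3 or 12 h, and the groups differed only in that time. Each time had 2 libraries. No label says that these came from separate cultures, so p-values measure only the spread between these libraries, which may be technical.

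The major histocompatibility region is among the most gene-dense stretches of the human genome. Its class I part holds the genes whose products present peptides from inside the cell to cytotoxic T cells, its class II part holds those that present taken-up peptides to helper T cells together with the peptide transporter genes, and the class III part between them holds complement and tumour necrosis factor genes. K562 cells are known for very low surface levels of class I and class II molecules, and many genes of the class III part act in all cells. Chromatin is folded into domains, stretches that contact themselves more than their neighbours, and the sites between them are called boundaries. Contacts with both ends in the same 20 kb bin are called self-bin contacts here. In all shares summed over bins, a self-bin contact counts once and any other contact once for each end in those bins. A summed share, of self-bin contacts or of contacts between chromosomes, is therefore not a share of ligated pairs.

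Contacts per library of the second run ranged from 62777251 to 176412222, and both 12 h libraries were deeper than all others, so depth moved with digestion time. The part of depth in the results below was not tested, apart from the thinned boundary calls. The deposited files hold a balanced signal, in which every bin is scaled to the same total. Whole contacts were recovered from it, with 100% of the values of every file within 0.01 of a whole number.

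The files listed fewer bins in the class III part than elsewhere in the stretch. In the class III part 6 of 36 bins were absent, which is 16.7%, against 4 of 94 bins in class I, 2 of 65 in class II and 223 of 8256 bins, or 2.70%, in the rest of chromosome 6. The longest absent run spanned 31.96 to 32.02 Mb, and a second one spanned 32.1 to 32.14 Mb. In class II the absent run spanned 32.46 to 32.5 Mb, and in class I bins were absent at 30.8 and 31.24 Mb and from 31.32 to 31.36 Mb. The bin starting at 31.32 Mb was listed in 5 of the 8 files and the one beside it in none. Nearly identical gene copies are known in this region, among the complement genes of class III and the DR genes of class II. The filter that removed the bins is not given in the sources used here.

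Summed over bins, the share of contacts that stayed inside a bin fell with digestion time in all 5 stretches. This summed share was highest in class II and lowest in class III. In class II the self-bin share was 13.9% and 17.5% in the libraries of 0.25 h, 12.5% and 12.98% at 1 h, 11.8% and 11.6% at 3 h, then 7.34% and 7.06% at 12 h. In class I it was 12.8% and 15.6% at 0.25 h, 11.7% and 11.8% at 1 h, 10.9% in both libraries at 3 h, then 6.81% and 6.58% at 12 h. In class III it was 9.13% and 13.6% at 0.25 h, 8.79% and 9.32% at 1 h, 8.16% and 8.12% at 3 h, then 5.10% and 5.00% at 12 h. In none of the 3 parts did the ranges of 0.25 h and 12 h overlap, and the second library of 0.25 h stood above the first in each. All other bins of the genome, summed in the same way, fell from 11.3% and 13.8% to 6.20% and 6.10%.

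**Figure D1:**
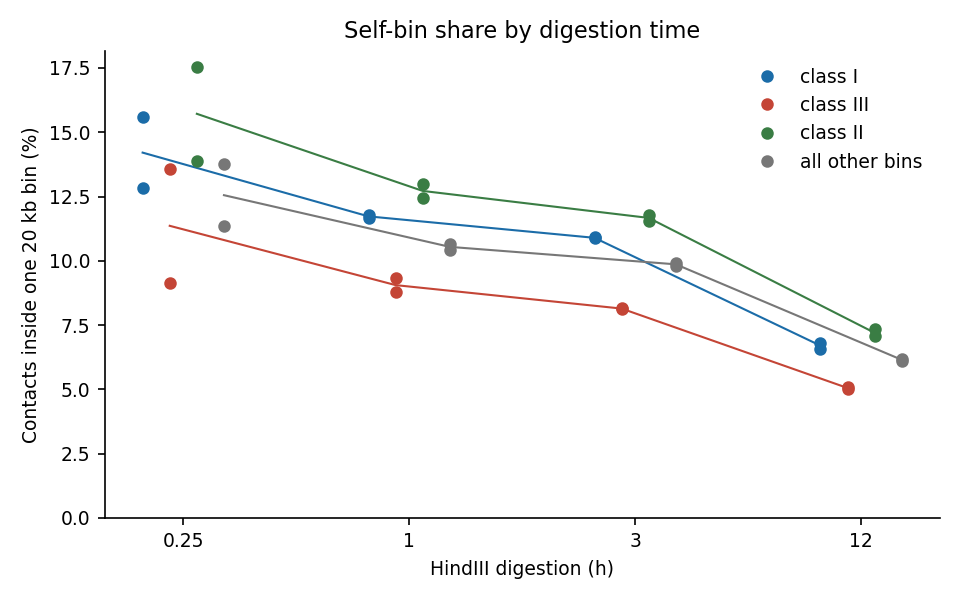
Share of contacts inside one 20 kb bin (%) against HindIII digestion time (h) for the class I, III and II parts and all other bins; each point is a library, lines join the means of 2 libraries and series are set side by side at each time. Class II lies above and class III below all other bins at every time.

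Over the 8 libraries the self-bin share of the region followed log2 hours with a Spearman rho of -0.98 (exact permutation test, two-sided, p = 0.00079, the smallest these 8 libraries allow; adjusted p = 0.00095 over 6 stretches) and a Pearson r of -0.94 (exact permutation p = 0.00079). Without the 0.25 h libraries r was -0.96, and without the 12 h libraries it was -0.83. The order of the 3 parts by summed share was the same in all 8 libraries. Class II exceeded class III by 3.42 ± 0.886 percentage points (SD, n = 8 libraries), and class I exceeded class III by 2.48 ± 0.693 (SD, n = 8). Class II exceeded class I by 0.943 ± 0.473 (SD, n = 8), with a lowest difference of 0.477. Class III was below all other bins by 0.181 to 2.20 percentage points. The SDs take in the differences between the 4 digestion times, and the sign-flip test below treats all 8 libraries alike, whatever their time. Each of these 4 differences had an exact sign-flip permutation p of 0.0078, two-sided, the smallest that 8 libraries allow, and an adjusted p of 0.0078 over 16 differences.

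Summed over its bins and set against all other bins, the self-bin share of the region fell further with digestion than that of the genome. The log2 odds of a self-bin contact in the region, minus those in all other bins, were 0.20 and 0.27 at 0.25 h, 0.18 in both libraries at 1 h, 0.15 in both at 3 h, then 0.14 and 0.11 at 12 h. The excess was positive in all libraries, and those of 0.25 h were all above those of 12 h (Spearman rho -0.98, exact permutation p = 0.00079, adjusted p = 0.0024 over 6 stretches; Pearson r -0.89, p = 0.00079, and -0.93 and -0.84 without the 0.25 h and the 12 h libraries). Class I (rho -0.93, exact permutation p = 0.0032, adjusted 0.0048) and class II (rho -0.98, exact permutation p = 0.00079, adjusted 0.0024) showed the same course. So did the centromeric flank outside the region, with 0.05 and 0.09 at 0.25 h, against -0.10 and -0.09 at 12 h (rho -0.93, exact permutation p = 0.0032, adjusted 0.0048). In class III the odds lay below those of all other bins in every library, by -0.02 to -0.35 on the log2 scale, and no trend with time passed the test (rho -0.24, exact permutation p = 0.59). When contacts with the direct neighbouring bin were counted with self-bin contacts, the sign of the trend of the region turned (rho 0.44, exact permutation p = 0.30).

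The self-bin share varied widely among single bins of the region, which hold far fewer contacts than the sums of the parts. The spread over bins elsewhere in the genome is not given here. At 0.25 h the self-bin share per bin ranged from 0 to 52.1% in the first library and to 59.96% in the second, with medians of 5.31% and 5.13% over the 183 bins. At 12 h the highest bins reached 20.8% and 22.02%, and the medians were 3.62% and 3.52%. Between 11 and 19 bins had no self-bin contact in a library.

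Each bin's log2 ratio of self-bin to other contacts, less the median of its library, was then compared between 0.25 h and 12 h. This used limma on all bins with Benjamini-Hochberg adjustment. Its variance trend, over the mean number of self-bin contacts, was chosen after seeing the data. Of the 285 bins, 46 were higher at 0.25 h, against 20.3% of all bins tested, and 48 were lower, against 9.37% of all bins tested. The lower bins were thus 16.8% and the higher ones 16.1% of the members. The median difference was -0.17 over the members and -0.07 over all bins. By this measure the typical member, flanks included, did not fall further than the typical bin, unlike the summed share of the region above. In the region, the self-bin share at 0.25 h lay above that at 12 h without overlap in 112 of 183 bins, against 78.0% of all bins. It lay below in 12, against 2.15%. Without subtraction of the library median, 143 members were higher, against 64.2% of all bins tested, and 2 were lower, against 0.165%, and the median over all bins moved to 0.82. With the median subtracted, as in the main fit, 5 of 30 bins of class III were higher and 8 lower. In class II 9 of 63 were higher and 11 lower, and in class I 12 of 90 were higher and 14 lower. The count of lower bins was smaller when either 12 h library was left out, which leaves 1 library at that time. The share of all bins in those fits is not given here, so the drop is not read as a trait of the members.

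The largest rise of the self-bin share at 0.25 h was in the class III bin from 32.06 to 32.08 Mb. Its self-bin share was 24.9% and 40% at 0.25 h, from 156 and 170 contacts, and 5.24% and 4.53% at 12 h, from 51 and 44 contacts. The shares at 1 h were 22.1% and 18.95% and those at 3 h were 22.02% and 18.99%, and the 12 h libraries were below all others. The log2 difference was 2.296 ± 0.243 (SE; limma adjusted p = 5.4e-05). The next bins were one in the centromeric flank at 33.76 Mb (2.18 ± 0.33, SE), and 2 in class II at 32.62 Mb (2.01 ± 0.30, SE) and at 33.2 Mb (1.81 ± 0.29, SE). The bin from 29.58 to 29.6 Mb, the last of the telomeric flank, was the fifth (1.63 ± 0.22, SE).

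The 5 largest falls were all in bins with almost no self-bin contacts at 0.25 h, so their fitted size depends on the pseudocount. The class III bin at 31.64 Mb had 0 self-bin contacts in both 0.25 h libraries and 6 and 3 at 12 h. The class III bin at 31.52 Mb had 3 and 0 at 0.25 h and 10 in both 12 h libraries. The class II bin at 33.44 Mb had 0 in both libraries of 0.25 h and 3 and 2 at 12 h, and the flank bins at 33.56 and 33.98 Mb had 0 or 1 at 0.25 h and 5 to 10 at 12 h. The positions of HindIII sites were not used here.

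Bins of the region took part in fewer contacts outside the bin itself than other bins, and they gained relative to the genome as digestion went on. The measure below was chosen after seeing the data, and its tests were not planned. The median number of contacts per bin in the region, divided by that of all other bins, was 0.624 and 0.616 at 0.25 h, 0.632 in both libraries at 1 h, 0.655 and 0.664 at 3 h, then 0.725 and 0.721 at 12 h. The times were in order with no overlap between neighbouring times (rho 0.98, exact permutation p = 0.00079, adjusted p = 0.0048 over 6 stretches; r 0.95, exact permutation p = 0.00079, and 0.99 and 0.94 without the 0.25 h and the 12 h libraries). Class III was lowest of the 3 parts, at 0.480 and 0.486 at 0.25 h, against 0.643 and 0.680 at 12 h. Class I rose from 0.642 and 0.670 to 0.779 and 0.777, and class II from 0.645 and 0.643 to 0.762 and 0.770. The telomeric flank was above the genome median in all libraries, at 1.40 to 1.48, and its trend did not pass the test (rho 0.49, exact permutation p = 0.25). The centromeric flank was as low as class III, at 0.457 and 0.505 at 0.25 h, against 0.630 and 0.656 at 12 h, and its trend also missed the threshold (rho 0.68, exact permutation p = 0.083; r 0.86, exact permutation p = 0.0095). In the first run of the same libraries, with far fewer contacts in 50 kb bins, the trend of the region missed the threshold (rho 0.68, exact permutation p = 0.083), while those of class I (rho 0.88, exact permutation p = 0.010) and class III (rho 0.78, exact permutation p = 0.035) passed it.

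**Figure D2:**
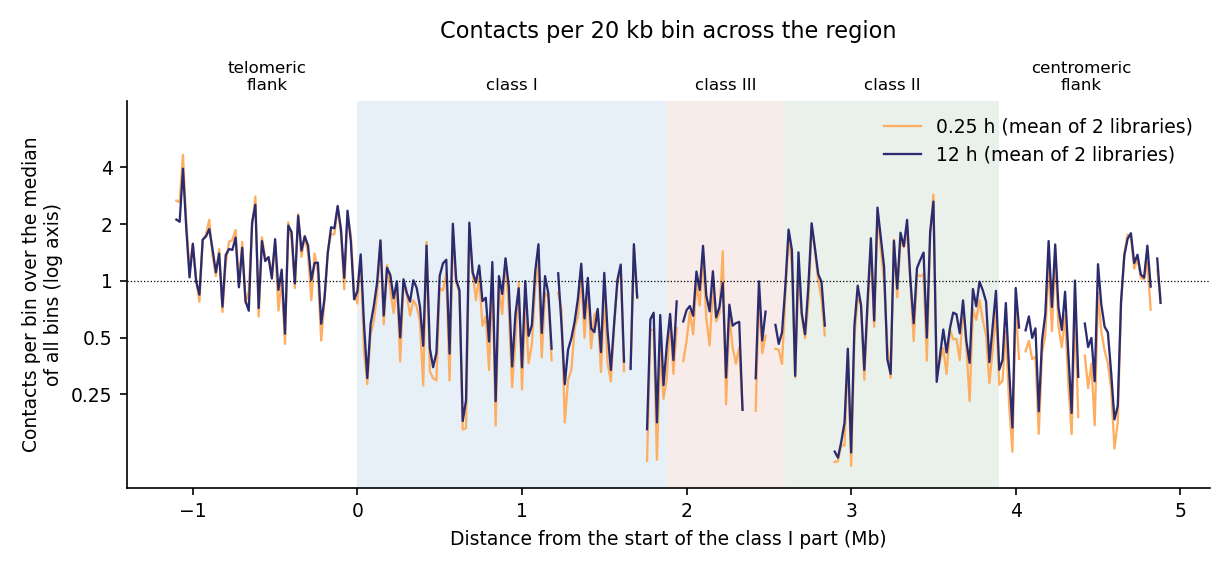
Contacts per 20 kb bin over the median of all bins (log axis) against distance from the start of the class I part (Mb), as the mean of the 2 libraries at 0.25 h and at 12 h; gaps are bins absent from at least 1 file. The 12 h line runs above the 0.25 h line over most of classes I, III and II, and the telomeric flank lies mostly above 1.

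Per bin, 199 of the 285 members had fewer CPM at 0.25 h than at 12 h, against 35% of all bins tested, and 12 had more, against 20.9% of all bins tested (limma on log2 contacts outside the bin itself as CPM, that is relative to all such contact ends of the library, with a pseudocount of 0.5, Benjamini-Hochberg adjustment over 137198 bins). The members' median difference was -0.25 and that of all bins was -0.05. Class III had 25 of 30 bins lower, class I 71 of 90, class II 42 of 63 and the centromeric flank 41 of 47. In the telomeric flank 20 of 55 bins were lower and 8 higher. By limma, no member differed between 0.25 h and 1 h or between 1 h and 3 h. At an unadjusted p under 0.05 there were 30 and 25 members, and the shares of all bins for these 2 steps are not given here. At 3 h, 158 members were lower than at 12 h, against 24.2% of all bins tested, so the calls among members rest on the 12 h libraries. When only contacts with other chromosomes were counted, 40 members were lower, against 3.7% of all bins tested, and 2 were higher, against 2.54%.

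The largest losses at 0.25 h lay in class III and the centromeric flank. In the class III bin at 31.9 Mb the CPM values were 2.26 and 2.38 at 0.25 h, 2.36 and 2.498 at 1 h, 2.69 and 2.87 at 3 h, then 3.93 and 3.96 at 12 h, a log2 difference of -0.76 ± 0.07 (SE). In the class III bin at 31.58 Mb, at the border of an absent bin, they were 2.46 and 2.33 at 0.25 h, against 3.97 and 4.08 at 12 h, a log2 difference of -0.75 ± 0.07 (SE). In the flank bin at 34.08 Mb they were 1.105 and 1.08 at 0.25 h, against 1.83 and 2.05 at 12 h, the largest loss at -0.82 ± 0.10 (SE). The flank bins at 34.04 and 33.98 Mb both had differences of -0.77.

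The opposite course was seen most in another class III bin, from 31.82 to 31.84 Mb. It held 8.66 and 9.65 CPM at 0.25 h, 8.22 and 9.24 at 1 h, 8.30 and 8.92 at 3 h, then 6.26 and 6.60 at 12 h, a log2 difference of 0.51 ± 0.06 (SE). This bin was the most contacted of class III in both 0.25 h libraries. The other 4 named gains were in the telomeric flank at 28.94, 28.52 and 28.5 Mb and in class I at 31.04 Mb, with log2 differences of 0.25 to 0.30. All 10 named bins had limma adjusted p-values under the 0.05 threshold and non-overlapping values at 0.25 h and 12 h, as the rule for naming them required.

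A larger share of the region's contacts than of the genome's joined other chromosomes, and class III had the highest share of the 3 parts, with the centromeric flank in the same range. In class III the share between chromosomes was 18.1% and 17.9% at 0.25 h, 17.95% and 18.8% at 1 h, 18.2% and 18.7% at 3 h, then 18.8% and 18.9% at 12 h. In class I it ranged from 16.2% to 18.4%, in class II from 14.3% to 16.8%, in the centromeric flank from 17.6% to 19.9%, and in all other bins from 10.7% to 12.7%. Class III exceeded all other bins by 6.80 ± 0.439 percentage points, class I by 5.66 ± 0.151 and class II by 3.79 ± 0.231 (SD, n = 8 libraries; each higher in 8 of 8, exact sign-flip permutation p = 0.0078, adjusted p = 0.0078 over 16 differences). The share of the region rose from 15.7% and 16.4% at 0.25 h to 17.6% and 17.9% at 12 h, and its trend missed the threshold (rho 0.73, exact permutation p = 0.055; r 0.85, exact permutation p = 0.0095). The second library had the higher share at all 4 times, and the trend passed with the replicate number as a block (exact permutation p = 0.017) and in the first run (rho 0.78, exact permutation p = 0.035). The 5 stretches taken singly passed the threshold, with adjusted p = 0.042 for class I, 0.040 for class III, 0.042 for class II, 0.0048 for the telomeric flank and 0.0095 for the centromeric flank (exact permutation, over 6 stretches). Self-bin contacts are part of the total behind this share, and with them left out none of the 5 passed. For class III the direction turned (rho -0.44, exact permutation p = 0.30). The other values of rho were 0.10 for class I, 0.29 for class II and for the centromeric flank and 0.68 for the telomeric flank, with 0.15 for the region (exact permutation p from 0.083 to 0.86). In the first run class I (rho 0.73, exact permutation p = 0.055) and class III (rho 0.44, exact permutation p = 0.30) also missed the threshold. Against all other bins the excess of the region shrank with time, from 0.63 and 0.64 to 0.57 and 0.58 on the log2 odds scale (rho -0.93, exact permutation p = 0.0032, adjusted p = 0.019 over 6 stretches; r -0.93, and -0.93 and -0.86 without the 0.25 h and the 12 h libraries). Of the 3 parts, class I passed the same test (rho -0.88, exact permutation p = 0.010, adjusted p = 0.031), while class III (rho -0.63, exact permutation p = 0.11) and class II (rho -0.34, exact permutation p = 0.42) did not. With self-bin contacts left out, both of these passed the threshold (rho -0.83, exact permutation p = 0.020 for each), and class I did so again (rho -0.88, exact permutation p = 0.010). In the first run class I missed the threshold as well (rho -0.59, exact permutation p = 0.15).

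Some chromosomes were contacted more, and others less, than their share of contacts between chromosomes. Relative to the share that each chromosome takes of all contacts between chromosomes, the region contacted chromosome 19 at 2.1102 ± 0.105 times that share (SD, n = 8 libraries), chromosome 17 at 1.74 ± 0.0459 times, chromosome 16 at 1.697 ± 0.0952 times and chromosome 22 at 1.35 ± 0.0685 times. The lowest were chromosome 13 at 0.586 ± 0.0474 times, chromosome 18 at 0.683 ± 0.033 times, chromosome 4 at 0.727 ± 0.037 times and chromosome X at 0.746 ± 0.0227 times. All 8 libraries were above 1 for the first 4 and below 1 for the last 4. The ratio of contacts with chromosomes 17, 19 and 22 to contacts with chromosomes 4, 13 and 18, relative to all other bins, was 2.89 to 3.81 across the libraries for class III, 2.10 to 2.67 for class I and 2.17 to 3.01 for class II. It was 1.47 to 1.73 for the telomeric flank, below all 3 parts in each library, and 2.45 to 3.18 for the centromeric flank, within the range of the 3 parts. Its trend with digestion time passed the test in none of the 6 stretches after adjustment (class II: rho 0.88, exact permutation p = 0.010, adjusted p = 0.062). This ratio was also chosen after seeing the data.

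In 100 kb bins, all 7 bins of class III, all 19 of class I and all 13 of class II were in the highest 10% of the bins of chromosome 6 by this ratio, taken over the 8 libraries together. The same held for all 11 bins of the telomeric flank and all 10 of the centromeric flank. The median bin of class III was at percentile 99.6 of the chromosome, that of the centromeric flank at 98.7, that of class I at 98.2, that of class II at 97.9 and that of the telomeric flank at 93.6. No member sent over 25% of its contacts between chromosomes to a single chromosome, and the highest share was 16.7%.

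Boundaries were called from the insulation score, the log2 of balanced contacts across a bin within 200 kb to each side over the mean of the chromosome, as minima with a prominence of at least 0.2 in the mean of the 8 libraries. This gave 23 boundaries among the members, 17 of them in the region, or 4.64 per Mb of listed bins against 2.21 per Mb of listed bins in the genome. The gap was smaller in stricter settings, with 2.46 against 1.68 per Mb at a prominence of 0.4 and 1.91 against 1.49 per Mb with a window of 400 kb. They were shallow. The median score of the 23 was -0.04 and that of all 6075 boundaries was -0.45, and the median prominence was 0.60 against 0.75. A library on its own gave 19 to 24 boundaries in the stretch. Of the 23 boundaries, 13 were called within 1 bin in all 8 libraries and 3 in fewer than 5. The same shares over all 6075 boundaries are not given here, so these counts are not read as a trait of the members.

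**Figure D3:**
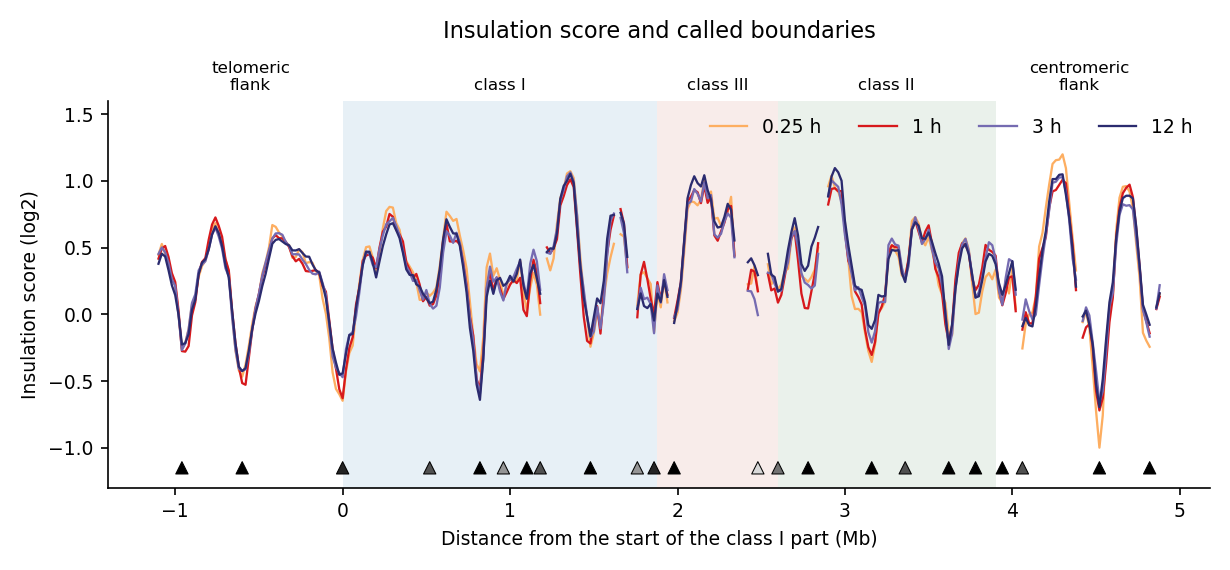
Insulation score (log2) against distance from the start of the class I part (Mb), as the mean of the 2 libraries at each of 4 digestion times. Triangles mark the 23 boundaries, black where all 8 libraries called them and paler where fewer did; the lines of the 4 times follow each other, and the deepest minimum lies in the centromeric flank.

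Boundaries lay within 1 bin of the start of the region and of both inner borders. The borders were set with earlier results of these data known, so this is a description. The first was the bin from 29.6 to 29.62 Mb, the first bin of class I. Its insulation scores were -0.67 and -0.62 at 0.25 h, -0.60 and -0.65 at 1 h, -0.50 and -0.44 at 3 h, then -0.42 and -0.47 at 12 h. Both 0.25 h libraries were lower than both 12 h libraries, the difference was -0.21 ± 0.056 (SE), and it did not pass the test after adjustment over all 6075 boundaries (limma adjusted p = 0.45). The last bin of class I, from 31.46 to 31.48 Mb, was a boundary called by 7 libraries, with scores from -0.49 to 0.22. The first bin of class II, from 32.2 to 32.22 Mb, was called by 5 libraries, with scores from 0.01 to 0.34, and was found in 3 of 7 other settings. It was absent with windows of 100 kb and 400 kb, without balancing and in the first run. The nearest boundary to the end of class II was at 33.54 Mb, 50 kb beyond it, and was called in all 8 libraries.

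Besides the one at 29.6 Mb, the most prominent boundaries inside the region were at 30.42 Mb in class I, at 32.76 and 33.22 Mb in class II and at 31.08 Mb in class I. The class I boundary at 30.42 Mb had a mean score of -0.56 and a prominence of 1.29, more than 81.6% of all boundaries. The boundary at 32.76 Mb had a mean score of -0.25, with a prominence of 1.30. All 4 were called in all 8 libraries. Class III held only the boundaries at 31.58 and 32.08 Mb, with prominences of 0.31 and 0.20, and the second was called by 2 libraries. In the centromeric flank the boundary at 34.12 Mb was the deepest of all 23, with scores from -1.22 to -0.34.

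No boundary differed between 0.25 h and 12 h after adjustment. Limma called 0 of 23 members and 0 of 6075 boundaries, a percentage of 0 in both, while 3 members and 509 of all had an unadjusted p under 0.05. These 3 were the boundary at 29.6 Mb, the one at 30.42 Mb, with a higher score at 0.25 h by 0.21 ± 0.093 (SE), and the one at 34.42 Mb, with a difference of -0.17 ± 0.063 (SE). The median difference over the members was -0.08 and over all boundaries -0.02. In simulated data the same test called 98.5% of 200 differences of 1 log2 unit among 6075 boundaries. The largest difference among the members was -0.30, at 34.12 Mb. Differences of that size were not simulated, so the simulation cannot say whether they could be called. Scores from contacts that were not balanced gave another result, with 32 of 35 members lower at 0.25 h, against 3823 lower and 1370 higher of 12722 in all.

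The 13 boundaries with a prominence of at least 0.4 cut the stretch into 12 blocks. The boundaries came from the same balanced signal, so high values inside blocks and low ones between neighbours follow from that choice, and all block values are a description. Inside every block the balanced signal exceeded the mean of chromosome 6 at the same distance, with means over the libraries from 1.17 to 1.45, and all 8 libraries were above 1 in each. Of the 66 pairs of different blocks, 51 were below 1 in all 8 libraries and 4 were above 1 in all 8. The median over these pairs was 0.731. The block that spans class III, from 31.48 to 32.2 Mb, was at 1.45 inside itself on the mean, with libraries from 1.40 to 1.54. This was the highest mean, but another block was higher in 5 of the 8 libraries.

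**Figure D4:**
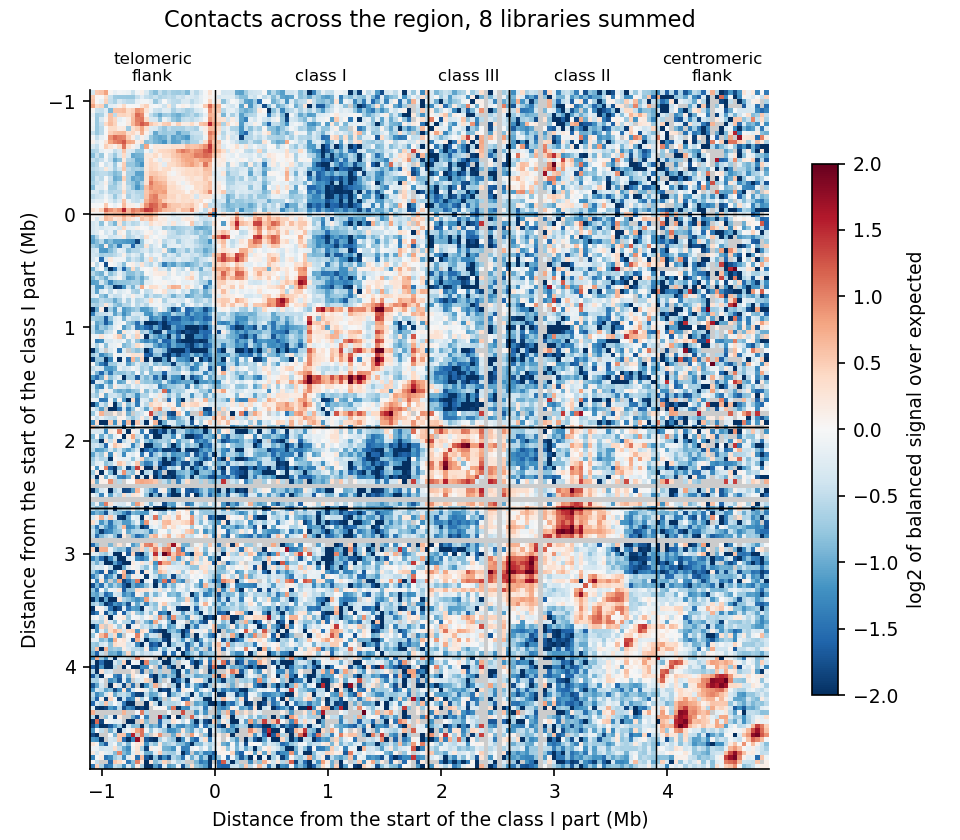
Balanced signal over the expected value at the same distance (log2 colour scale) for pairs of 40 kb bins across the region and its flanks, all 8 libraries summed, with both axes giving distance from the start of the class I part (Mb) and black lines marking the borders of the parts. Red squares along the diagonal are blocks that contact themselves; class III is a red square, class I is split in its middle, and red cells off the diagonal join the start of class II with its middle; grey cells were not measured.

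Class I was split at 30.42 Mb. The block from 30.44 to 31.08 Mb contacted the class I block before it, from 30.14 to 30.42 Mb, at 0.715 of the expected value and the first class I block, from 29.62 to 30.12 Mb, at 0.593. These first blocks contacted each other at 1.18, with libraries from 1.09 to 1.24. The last class I block, from 31.1 to 31.46 Mb, contacted the block from 30.14 to 30.42 Mb at 1.22 on the mean, above 1 in 7 of 8 libraries, and the block between them at 0.933. The block from 30.44 to 31.08 Mb also contacted the last telomeric flank block, from 29.02 to 29.6 Mb, at 0.434, among the lowest values of the map.

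Class II held the most joined pairs of blocks. Its first block, from 32.22 to 32.38 Mb, contacted the next, from 32.4 to 32.76 Mb, at 1.58, with libraries from 1.40 to 1.77. It contacted the block after that, from 32.78 to 33.22 Mb, at 1.47, with libraries from 1.38 to 1.54. Both values exceeded that of the first block inside itself, which was 1.17. Across the boundary at 32.76 Mb, the blocks from 32.4 to 32.76 Mb and from 32.78 to 33.22 Mb contacted each other at 0.876, below 1 in all 8 libraries, and the second contacted the block from 33.24 to 33.66 Mb at 0.807. The block from 32.4 to 32.76 Mb contacted the block from 33.24 to 33.66 Mb at 0.335, the lowest value of the 66 pairs. The class III block contacted the class II block from 32.78 to 33.22 Mb at 1.15 (libraries 1.099 to 1.23), and the blocks between them less, at 0.797 and 0.841.

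Corners, where the bins at both ends of a block meet, were highest in class II and class I. Over the 3 by 3 bins around the pair 30.42 and 31.08 Mb in class I, the balanced signal was 3.35 ± 0.883 times the expected value (SD, n = 8 libraries), from 345 contacts. It was 2.49 and 5.03 at 0.25 h, 3.73 and 2.67 at 1 h, 2.53 and 3.74 at 3 h, then 3.798 and 2.82 at 12 h, and the times overlapped. Around the pair 32.38 and 32.76 Mb in class II it was 5.01 ± 0.35 times (SD, n = 8), from 3781 contacts. It was 5.01 and 4.98 at 0.25 h, 5.29 and 5.15 at 1 h, 5.39 and 5.10 at 3 h, then 4.88 and 4.24 at 12 h. The corner of the class III block was at 0.705 ± 0.469 times the expected value, from 53 contacts, so no raised corner was detectable there at this depth. The corner from 32.76 to 33.22 Mb was below 1 in all 8 libraries, with a mean of 0.734.

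Single pairs of 20 kb bins were also ranked, and the pair 32.36 and 32.76 Mb lies inside the corner around 32.38 and 32.76 Mb given above. Its contacts are among those of that corner, so it adds no separate evidence. Among 2518 pairs 100 kb to 2 Mb apart with at least 40 contacts, 604 had a ratio over 2 of contacts to the mean of the surrounding pairs. The 6 highest had ratios from 6.82 to 11.8. A ratio above 1 in all 8 libraries was required, and the best was kept of pairs close together. These values chose them and are given as a description. The pair 32.36 and 32.76 Mb held 943 contacts against a surrounding mean of 93.4, a ratio of 10.1, and the ratio was 8.80 to 11.7 across the libraries. The pair 32.22 and 32.76 Mb held 454 contacts, a ratio of 8.33, with libraries from 6.93 to 9.67. On the balanced signal, where every bin has the same total, the same ratios were 1.89 and 1.44. The pair with the highest ratio, 33.1 and 34.1 Mb, held 57 contacts and fell to a ratio of 1.25 after balancing, and the pair 32.22 and 33.1 Mb fell to 0.88, below its surroundings on that scale. The other 2 pairs were 33.54 and 34.1 Mb, with a balanced ratio of 1.65, and the class I pair 30.18 and 31.28 Mb, with 1.35.

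Contacts within and between the parts were then set against the mean of chromosome 6 at the same distance. On recovered contacts all values were below 1, beside the lower number of contacts per bin given above. Against the mean of all autosomes at the same distance, class II with itself reached a mean of 1.015 at 12 h, while the other pairs of parts stayed below 1. Inside the region the order was class II within itself, then class III and class I, then the pairs of its parts. Pairs with the telomeric flank did not keep to it. That flank contacted class II at 0.535 and 0.533 at 0.25 h, above class III and class I with themselves in these and in all libraries of 1 h and 3 h, against 0.584 and 0.602 at 12 h, below both. With the borders moved by 5 bins that order turned, as class III with class II rose to a mean of 0.633, above class III with itself at 0.591 and class I with itself at 0.509. Class III with itself was 0.475 and 0.487 at 0.25 h, 0.518 and 0.515 at 1 h, 0.517 and 0.548 at 3 h, then 0.684 and 0.707 at 12 h. Class II with itself rose from 0.663 and 0.644 to 0.819 and 0.836, and class I with itself from 0.470 and 0.463 to 0.615 and 0.623. In each of these the 12 h libraries were the highest and did not overlap with the rest (rho 0.93 to 0.98, exact permutation p = 0.0032 for class III and 0.00079 for the other 2, adjusted p = 0.010 and 0.0052 over 13 pairs of parts).

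**Figure D5:**
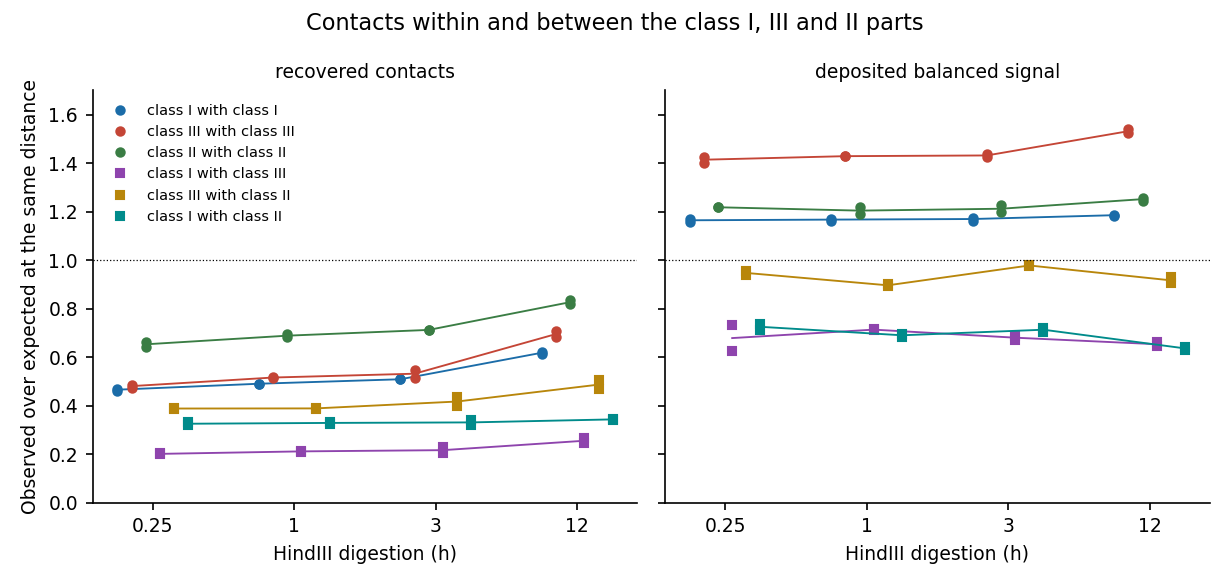
Observed over expected contacts at the same distance against digestion time (h) within and between the class I, III and II parts, on recovered contacts (left) and on the deposited balanced signal (right); each point is a library, lines join means of 2 and series are set side by side at each time. On contacts every part with itself is highest at 12 h and class I with class II stays nearly level; on the balanced signal the parts with themselves lie above 1 and the pairs of parts below 1.

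Between the parts, class III and class II had the highest values, and class I contacted both less. On recovered contacts, class III with class II was 0.387 and 0.391 at 0.25 h, against 0.468 and 0.507 at 12 h (rho 0.88, exact permutation p = 0.010, adjusted p = 0.019; r 0.86, and 0.93 and 0.65 without the 0.25 h and the 12 h libraries). Class I with class III was 0.204 and 0.199 at 0.25 h, against 0.245 and 0.267 at 12 h (rho 0.88, exact permutation p = 0.010, adjusted p = 0.019; r 0.87, and 0.85 and 0.68 without the 0.25 h and the 12 h libraries). Class I with class II stayed between 0.319 and 0.346, and its trend missed the threshold (rho 0.73, exact permutation p = 0.055). On the balanced signal class III with class II was 0.935 (libraries 0.892 to 0.980), class I with class II 0.692 (0.631 to 0.739) and class I with class III 0.682 (0.625 to 0.734), all below 1 in all 8 libraries. The rise with time was not seen there, with a rho of 0 for class III with class II and -0.39 for class I with class III (exact permutation p = 0.36). Class I with class II went the other way there, from 0.713 and 0.739 at 0.25 h to 0.642 and 0.631 at 12 h, without overlap (rho -0.68, exact permutation p = 0.083, adjusted p = 0.25 over 15 pairs of stretches; r -0.80, exact permutation p = 0.021).

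On the balanced signal, the contacts of class III with itself still rose with time, from 1.41 ± 0.017 at 0.25 h to 1.53 ± 0.0098 at 12 h (SD, n = 2 each; rho 0.88, exact permutation p = 0.010), but did not pass adjustment over 15 pairs of stretches (adjusted p = 0.13). Class I with itself followed the same course over a smaller range, from 1.16 and 1.17 at 0.25 h to 1.19 and 1.18 at 12 h (rho 0.78, exact permutation p = 0.035, adjusted p = 0.13). Class II with itself ranged from 1.19 to 1.26 (rho 0.63, exact permutation p = 0.11).

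In 200 kb bins, 55 of the 406 pairs inside the stretch had fewer contacts over expected at 0.25 h than at 12 h, against 2.15% of all 397676 pairs tested, and none had more (limma with the variance trend over the mean number of contacts, Benjamini-Hochberg adjustment; 119 members had an unadjusted p under 0.05). The members' median difference was -0.25, and that of all pairs -0.0001. Of the called pairs, 51 were under 1 Mb apart, among 106 such pairs, against 10.8% of the 54924 pairs under 1 Mb apart in the genome. On the balanced signal 0 of the 406 were called by limma, with 37 at an unadjusted p under 0.05, and the median difference was 0.03. With limma's usual variance trend 0 were also called, with 59 at an unadjusted p under 0.05. The variance trend over the mean number of contacts, on which the 55 calls rest, was chosen after seeing the data. Fewer pairs were called when either 12 h library was left out, which leaves 1 library at that time. The shares of all pairs for higher calls, the unadjusted cuts, the balanced signal, the usual variance trend and these fits are not given here. Of the 5 largest losses, 4 lay between 33.4 and 34.2 Mb. The pair of the bins starting at 33.8 and 34.0 Mb held 310 and 167 contacts at 0.25 h and 1004 and 893 at 12 h, and its log2 observed over expected was -2.17 and -2.11 at 0.25 h, -2.05 and -2.11 at 1 h, -1.89 and -1.85 at 3 h, then -1.24 and -1.19 at 12 h. The 3 h libraries lay above those of 0.25 h and 1 h, and the 12 h libraries lay highest. The largest of the 5, at a log2 difference of -0.94 ± 0.26 (SE), was the remaining pair. It joined class I at 30.6 Mb with class II at 33.2 Mb, from 14 to 63 contacts per library. It missed the threshold when the first 0.25 h library, either 3 h library or either 12 h library was left out.

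Farther along chromosome 6, all 3 parts shared a distant partner on the long arm. Among 1 Mb windows over 3 Mb away, the window from 109 to 110 Mb had the highest balanced signal over expected for class I, at 3.35 with libraries from 2.47 to 4.73, and for class II, at 2.74 with libraries from 1.87 to 3.27. For class III it was second, at 2.69 with libraries from 1.32 to 4.34, after the window from 170 to 171 Mb, at 3.54 from 92 contacts. The window from 108 to 109 Mb was at 2.74 for class I, 2.19 for class II and 2.12 for class III. These windows were above 1 in all 8 libraries for all 3 parts, from 601 contacts of class I, 349 of class II and 166 of class III for the first window. The windows were picked for these values, which are therefore a description.

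The major histone gene cluster lies between 26 and 28 Mb. The balanced signal over expected with that cluster was 0.694 for class I (libraries 0.674 to 0.719), 0.720 for class III and 0.620 for class II, below 1 in all 8 libraries for each, and 0.910 for the telomeric flank. On the mean of the libraries the cluster stood above the windows just before it, but not above all windows of the short arm. Class III was at 0.654 and 0.768 in the windows of the cluster, against 0.461 and 0.381 from 24 to 26 Mb, and class II at 0.585 and 0.648, against 0.441 and 0.425. From 3 to 4 Mb class III was at 0.996 and class II at 0.934, and class II was at 0.660 in the window after the cluster. No trend of these values with digestion time passed the test (exact permutation p from 0.19 to 0.95 over the 5 stretches).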

How the data were processed

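In situ Hi-C of K562 nuclei was sequenced in 2 runs of the same 8 libraries. Per the submitters' processing notes, HiC-Pro 2.11.1, Bowtie2 2.3.4.1 and build hg19 were used; the bin filter is not given in the sources used here. The values the authors deposited are a balanced signal per pair of bins, at 20 kb for the second run and 50 kb for the first. Contacts were recovered by removing the bin factors until values were whole within 0.01. Bins were numbered from 1 through the chromosomes of hg19. Trends over log2 hours used exact permutation of the 8 libraries, two-sided, adjusted by Benjamini-Hochberg within each family. Comparisons across bins, pairs and boundaries used limma 3.58.1 in R 4.3.3 with a variance trend over mean contacts for self-bin shares and pairs and over the tested value otherwise, a threshold of adjusted p under 0.05 and all 4 times in the fit; summaries used numpy 2.4.6 and scipy 1.17.1. The fits were tested on simulated data with a log2 change of 1 in 200 features of each comparison. They called 11% of changed bins for the self-bin share, 98.5% for contacts per bin, 13.5% for 200 kb pairs and 98.5% for boundaries. The real fits of bins and pairs called far larger shares of all features, so these rates may not hold for them. An SD over 8 libraries takes in the differences between the 4 times. Replicate numbers were not used to pair the libraries in the main fits and trends. For contacts per bin the deviations of same-numbered libraries correlated at 0.11 or more in every pair, and the replicate block was run as an alternative only. The labels do not say what a number shares. Named bins and pairs were the 5 largest differences per direction past the threshold whose 0.25 h and 12 h libraries did not overlap. Members, lists and part borders were chosen with earlier results of these data known. No genome or annotation of the files' build was used, so bins carry no gene names and no sequence is printed.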

Additional observations from a re-analysis of the deposited data

How the results depend on the processing

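Of 627 alternatives to 51 trends with time, 543 kept direction and side of the threshold, 40 lost the threshold, 22 gained it and 22 changed direction, none of these past the threshold in the new direction. Of 354 alternatives to the 25 named bins and pairs, 311 kept theirs and 43 lost the threshold. With neighbouring-bin contacts added, the trends of the self-bin share against all other bins turned to rho 0.44 in the region, 0.19518 in class I, 0.58554 in class III and 0.14639 in class II. That of class III, which had not passed the threshold, also turned to 0.24398 with borders moved by 5 bins and in the first run, and to 0.018356 without 0.25 h replicate 2 (-0.75258 to 0.018356 over libraries left out). That of the telomeric flank, likewise short of the threshold, turned to 0.048795 in the first run, to 0.036711 without 12 h replicate 1 and to 0.091778 without 12 h replicate 2 (-0.58738 to 0.091778). With self-bin contacts left out, the trend between chromosomes of class III turned to -0.43916, and relative to other bins that of the telomeric flank turned to -0.048795 in the first run. On the balanced signal, trends turned to -0.39036 for class I with class III, -0.68313 for class I with class II, -0.29277 for the telomeric flank with class I and -0.39036 for that flank with class II, and that of class III with class II was 0. With the centromeric flank they turned to -0.43916 for class I, -0.34157 for class III and -0.53675 for the telomeric flank. The trend of the telomeric flank with class III turned to 0.09759 with borders moved and to 0.055067 without either 0.25 h library (-0.45889 to 0.055067). The share between chromosomes of the region passed the threshold in the first run (0.78072) and with the replicate block (0.73193, exact permutation p = 0.017), and class I with class II did with borders moved by 5 bins (0.82952). Bins called for the self-bin share numbered 61 with only the 0.25 h and 12 h libraries, 145 without subtraction of the median and 18 in the first run, which has fewer and larger bins. Bins called for contacts numbered 42 between chromosomes only and 51 in the first run. Pairs called numbered 0 on the balanced signal, 0 in the first run and 0 with the usual variance trend. Boundaries called lower numbered 32 without balancing. The median number of boundaries per library was 14 at a prominence of 0.4 and 12 with a window of 400 kb. Where no value is given for a cause, the cause was not tested. Leaving out 1 library gave rho -0.97285 for the self-bin share, absolute or relative, 0.60573 to 0.89942 for the share between chromosomes, -0.97285 to -0.89942 for that share relative to other bins, 0.826 to 0.97285 for class III with either neighbour and 0.60573 to 0.89942 for class I with class II. It gave 47 to 124 bins for the self-bin share, 175 to 210 for contacts, 29 to 73 pairs and 0 boundaries. The replicate block gave 106 bins, 218 bins, 61 pairs and 0 boundaries; same-numbered libraries correlated at as little as 0.017 for the self-bin share, 0.0026 for pairs and -0.074 for boundaries. Apart from those given above, the shares of all bins and pairs called in these alternative fits are not given here. The counts of members called in them are therefore not read as traits of the members. The variance trend and the neighbouring times were chosen after seeing the data. So were contacts per bin against other bins and the gene-rich ratio, with all their alternatives. Few self-bin contacts per bin limit single-bin calls, and depth rose with time.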
